A study of Homo sapiens and Homo sapiens
Mus musculus and Mus musculus with 200 samples.

Results

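TWIST1 binding was compared between HEK293 cells given TWIST1 together with PRRX1a, together with PRRX1b, or without a partner. The members are 3 of the 200 samples of the series, 1 peak list each, chosen as every HEK293 library made with the TWIST1 antibody and a PRRX1 isoform plus the library of TWIST1 alone that goes with them. The lists held 15395 peaks with TWIST1 alone, 12288 with PRRX1a and 17317 with PRRX1b, and peaks that overlapped by at least 1 bp were joined into 32537 sites. The study used chromatin immunoprecipitation followed by sequencing (ChIP-seq) to follow transcription factors that act together in face and limb mesenchyme. HEK293, a human embryonic kidney line, was transfected with pcDNA3.1_V5-TWIST1 in all 3 groups, with pcDNA3.1_PRRX1a-Flag or pcDNA3.1_PRRX1b-Flag added in the partner groups, and was harvested 24 h later. The antibody (Abcam ab50887) was against TWIST1, so the lists show where TWIST1 was found and not where PRRX1 was. Both factors came from plasmids in a cell type other than the mesenchyme in which they normally act, which limits the cells as a model. Each group was 1 library with no replicates, so no difference between the lists was tested, and the Wilson 95% intervals below cover counting error only. How deeply each library was sequenced is not given by its list.

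TWIST1 is a basic helix-loop-helix (bHLH) factor that binds short E-box sequences as a dimer, often with an E protein such as TCF4, and it shapes neural crest, head mesenchyme and limb buds. PRRX1 is a paired-type homeodomain factor of the same mesenchyme and binds AT-rich sites with a TAAT core. Its isoforms PRRX1a and PRRX1b come from 1 gene by alternative splicing, share the homeodomain and differ at the C terminus. An E-box and a homeodomain site placed at a fixed short distance form a composite motif that can hold both kinds of factor side by side.

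The sequences below are among the best-ranked sites of the composite motif at which TWIST1 was found with an isoform and not alone. They are shown for the spacing of the 2 parts, the most frequent of those counted in both isoform lists. It was also the most frequent in the list of TWIST1 alone. The E-box searched was CAGATG, which reads CATCTG on the other strand. The forms CAGCTG, and likewise CATATG, were counted as E-boxes too. The homeodomain site was TAATTA, with TAATTG as its other form, both strands were read, and the gap was 4 bp. Each sequence is from hg38 on the strand given, 5′ to 3′. Capitals mark the E-box first and then the homeodomain site, and CAATTA is TAATTG read on the other strand. The PTGER2 and SDK1 sequences were alike at most bases outside the capitals too, and repeated DNA was not looked for.
LGI1, both isoforms, chr10:93816346-93816375, strand +: ctggtggCAGCTGgttcCAATTAgcaggga
SOX9, both isoforms, chr17:72376653-72376682, strand -: ccgaaccCATCTGctgtCAATTAgtctaaa
TSHZ3, both isoforms, chr19:31340188-31340217, strand +: gaaaaggCATCTGtcaaTAATTGtagggag
SPRY1, PRRX1a only, chr4:124019000-124019029, strand +: tgaagagCAGATGgcttTAATTGttagcct
PTGER2, PRRX1a only, chr14:52334376-52334405, strand +: ctggcacCAGCTGcaacCAATTAttatttt
SDK1, PRRX1b only, chr7:3212789-3212818, strand -: ccggcacCAGCTGtgacCAATTAttacttt
KBTBD2, PRRX1b only, chr7:32905375-32905404, strand +: atgttcaCATCTGcttgTAATTAtatgcaa

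For contrast, the sequence under TMPO is the best-ranked site of TWIST1 alone that held a double E-box, 2 E-boxes 5 bp apart, an arrangement more frequent in the list of TWIST1 alone than in the isoform lists. Capitals mark both E-boxes.
TMPO, TWIST1 alone only, chr12:98503091-98503120, strand +: ccccgaCATCTGgcagcCATATGctatcct

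The first comparison asked which sites TWIST1 reached with an isoform and not alone. Of the 32537 sites, 7945 were in the PRRX1a list and not in the list of TWIST1 alone (24.4%), and 12019 were in the PRRX1b list and not in that of TWIST1 alone (36.9%). Conversely, 11059 sites of TWIST1 alone were not in the PRRX1a list (34%) and 10122 were not in the PRRX1b list (31.1%). Between the isoforms, 11551 sites were in the PRRX1b list and not in the PRRX1a list (35.5%), and 6540 were in the PRRX1a list and not in the PRRX1b list (20.1%). The PRRX1b list was also the longest and the PRRX1a list the shortest, and the part of list length in these counts was not tested.

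Split into classes, 2919 sites were in all 3 lists (8.97%) and 2789 were in both isoform lists and not in that of TWIST1 alone (8.57%). A further 5156 sites were in the PRRX1a list only (15.8%), 9230 in the PRRX1b list only (28.4%) and 8738 in the list of TWIST1 alone only (26.9%). The remaining 1384 sites were shared by TWIST1 alone and PRRX1a (4.25%) and 2321 by TWIST1 alone and PRRX1b (7.13%). Sites found with a single isoform were thus more numerous than sites found with both. With the 2000 strongest peaks of each list the counts were 945 PRRX1a-only, 896 PRRX1b-only and 514 sites of both isoforms. At equal list length the single-isoform counts can differ only through sites shared with TWIST1 alone, apart from sites of several peaks. They therefore cannot show what part list length had in the larger number of PRRX1b-only sites.

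Sites of a single list were the weak peaks of that list. In the PRRX1a list the median -log10 q, the authors' value per peak, was 6.18 for peaks at sites of all 3 lists, 4.34 at sites of both isoforms and 2.84 at PRRX1a-only sites. The PRRX1b list gave 7.15, 5.03 and 3.26 in the same order. Of the 5156 PRRX1a-only peaks 240 were among the 2000 strongest of their list, and of the 9230 PRRX1b-only peaks 334 were. The best PRRX1a-only peak ranked 147 and the best PRRX1b-only peak ranked 73.

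**Figure D1:**
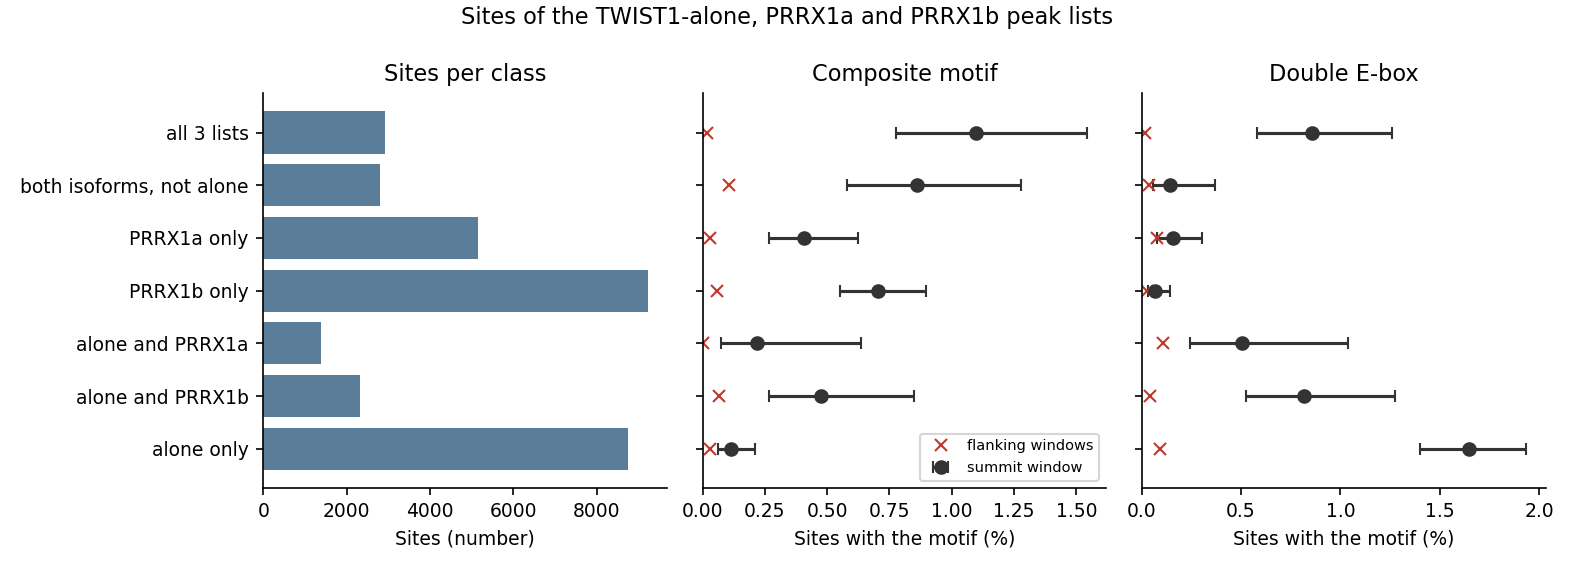
Number of sites in each class of list membership (left bars), share of sites with the composite motif (middle) and with the double E-box (right). Points are shares within 100 bp of the summit with Wilson 95% intervals, and crosses are windows of the same length centred 1000 bp to either side. The composite share is lowest in sites of TWIST1 alone only (0.114%) and the double E-box share is highest there (1.65%).

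At the top of the lists the isoforms shared most of their peaks. Among the 500 strongest PRRX1a peaks 92.2% were overlapped by a PRRX1b peak, and the share was 76.2% from there to rank 2000, 56.1% from there to rank 5000, 36.2% from there to rank 10000 and 27.01% below that. In the other direction the share ran 87.8%, 65.3%, 43.7%, 32.5% and 18.7%. Against TWIST1 alone the same bins of the PRRX1a list gave 77.6%, 56.4%, 39.5%, 28.2% and 19.7%, and those of the PRRX1b list 75.8%, 55.6%, 39.1%, 29.2% and 19.2%. The PRRX1a peaks were therefore overlapped more often by PRRX1b than by TWIST1 alone in every bin, while for PRRX1b peaks below rank 10000 both shares were alike (18.7% and 19.2%). Over all peaks, 46.5% of PRRX1a peaks (45.6 to 47.4) were overlapped by PRRX1b and 33.0% of PRRX1b peaks (32.3 to 33.7) by PRRX1a.

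With 2000 peaks taken from every list, so that length no longer differed, 44.9% of the PRRX1a peaks were overlapped by the PRRX1b peaks. For TWIST1 alone the overlap was 26.95% with PRRX1a and 29.45% with PRRX1b. The only HEK293 TWIST1 groups with repeats were made with the V5 antibody from TWIST1 without a partner and with ALX4, a homeodomain factor of the face, and 3 replicates each. Replicates without a partner overlapped each other by 49.55% to 57.15%, replicates with ALX4 by 62.55% to 70.25%, and the 2 groups overlapped by 20.7% to 27.65%. The overlap of the isoforms (44.9%) was below both ranges between replicates. That of PRRX1a with TWIST1 alone lay within the range between those groups, and that of PRRX1b just above it. The antibody differed, so these replicates show the spread of another experiment.

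**Figure D2:**
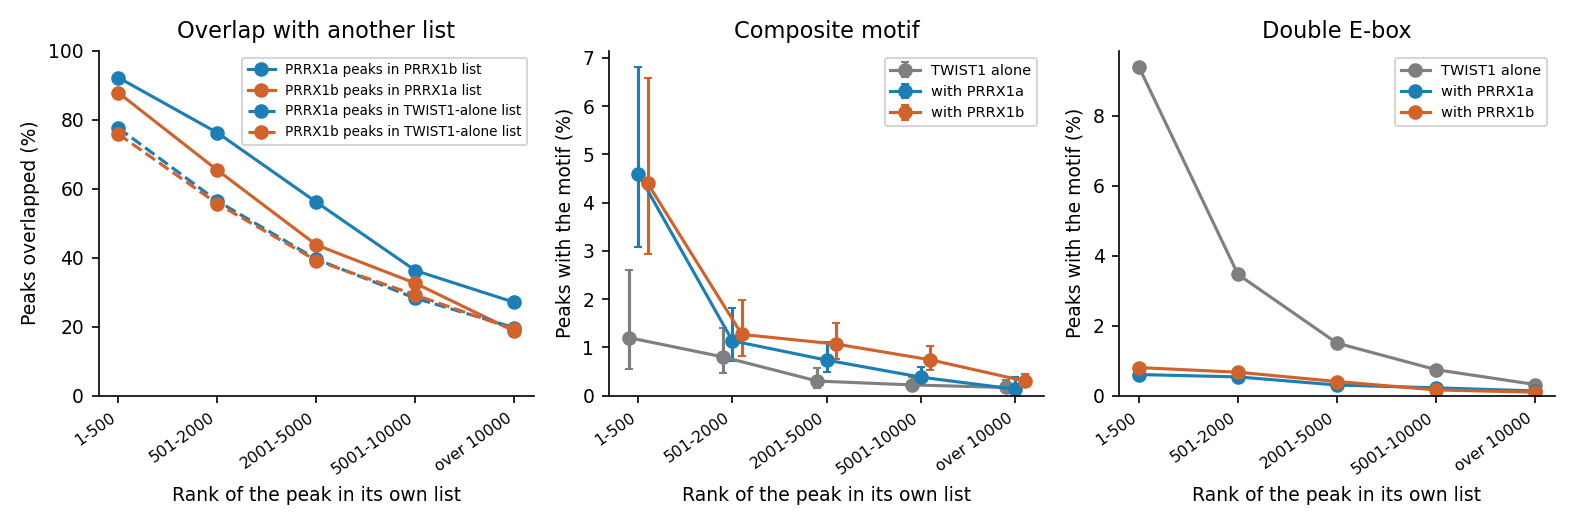
Share of peaks overlapped by another list (left), with the composite motif (middle) and with the double E-box (right), by the rank of the peak in its own list. Bars in the middle panel are Wilson 95% intervals. The 500 strongest isoform peaks hold the composite motif in 4.60% (PRRX1a) and 4.40% (PRRX1b), against 1.20% for TWIST1 alone.

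The isoform lists also resembled the list of TWIST1 with ALX4, made with the same antibody and plasmid backbone. Of the 2000 strongest PRRX1a peaks 43.7% were overlapped by the strongest ALX4 peaks, and of the PRRX1b peaks 50.35%. For MSX1 the shares were 23.8% and 26.05%, and for PHOX2A 31.7% and 35.85%. MSX1 and PHOX2A are homeodomain factors as well, and TWIST1 alone stood nearer to PHOX2A (46.1%) than either isoform did. PRRX1b peaks were overlapped by ALX4 peaks more often than by PRRX1a peaks (44.95%), a difference that was not tested.

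**Figure D3:**
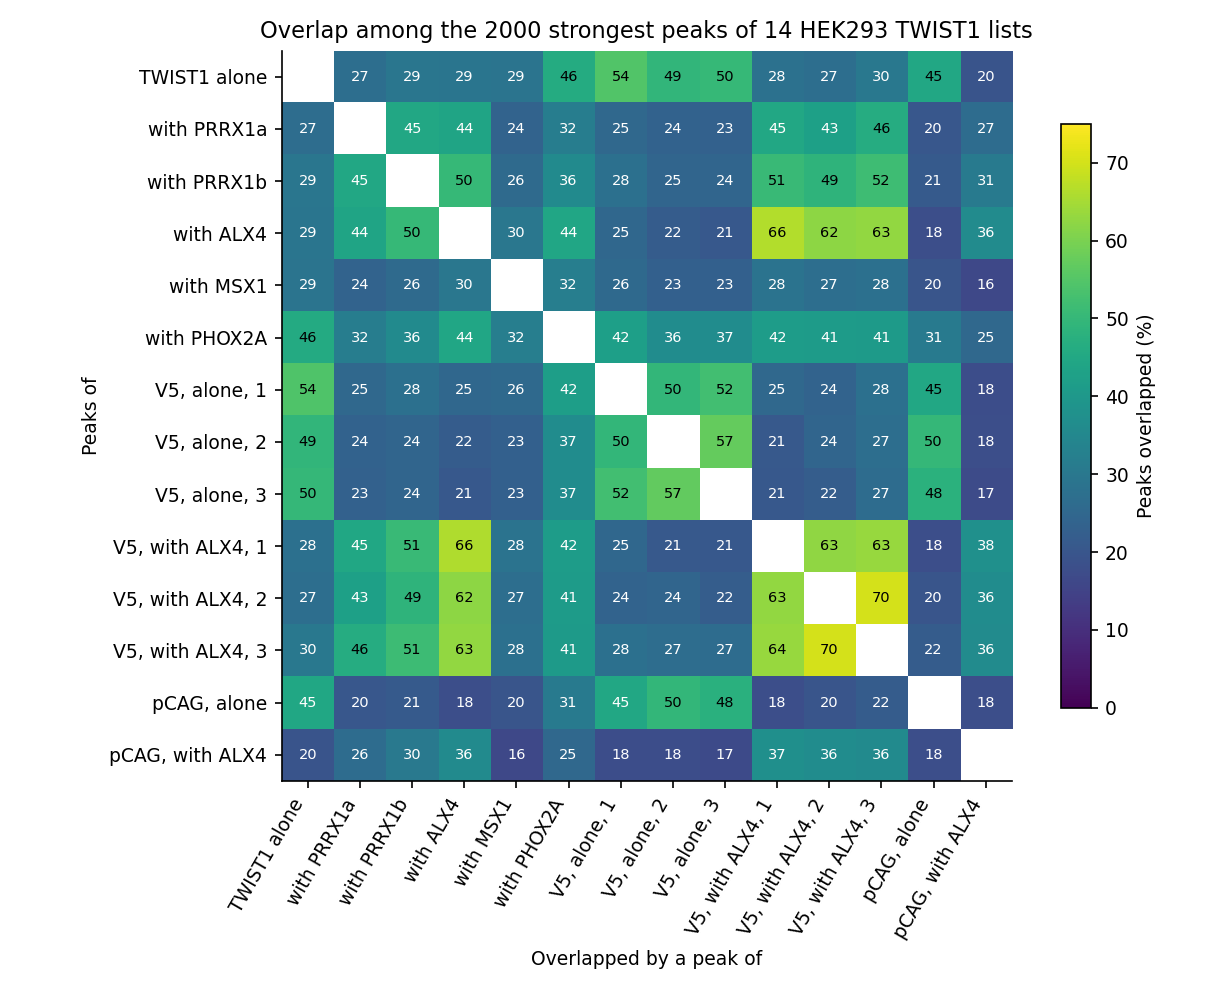
Percent of the 2000 strongest peaks of the list in the row that were overlapped by the 2000 strongest peaks of the list in the column, for 14 HEK293 TWIST1 lists. The rows of PRRX1a and PRRX1b are high with each other (44.9% and 44.95%) and with 4 of the 5 lists containing ALX4. With the pCAG list of TWIST1 and ALX4 they are at 26.65% and 30.6%, near their overlap with TWIST1 alone (26.95% and 29.45%).

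The strongest sites with named neighbours showed the classes. The top-ranked peak of all 3 lists lay in an intron of WDR62, a centrosomal protein gene (chr19:36070117-36071189), with -log10 q 300 for TWIST1 alone, 100.97 with PRRX1a and 145 with PRRX1b. Sites near SUB1, a transcription coactivator gene, ranked 2, 7 and 4, and in ZNF608, a zinc finger gene, 11, 12 and 6. These sites were bound in every group, and none of them held the composite motif.

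The best-ranked sites of both isoforms and not of TWIST1 alone were in SDCCAG8, a centrosome and cilium gene (intron, chr1:243332094-243333003), upstream of FNBP1L, a membrane-bending adaptor gene (5695 bp, chr1:93442032-93442850), and upstream of FOXP4, a forkhead factor gene (14299 bp, chr6:41531497-41533179). At SDCCAG8 the fold enrichment given by the authors was 11.6 with PRRX1a (rank 42) and 16.7 with PRRX1b (rank 9). The FNBP1L site had 13.8 (rank 52) and 18.7 (rank 16). The FOXP4 site had 18.1 (rank 6) and 12.5 (rank 62). The FOXP4 site was present in all 4 other HEK293 lists of TWIST1 without a partner, the FNBP1L site in 2 of the 4 and the SDCCAG8 site in 0. Absence from the 1 list of TWIST1 alone therefore did not mean absence from every list without a partner.

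Among sites with the composite motif, the sequence shown for SOX9, a factor of neural crest and cartilage, lay 255641 bp downstream of its start site in an intron of LINC00511 (chr17:72376384-72377238). Its fold enrichment was 10.2 with PRRX1a (rank 109) and 12.5 with PRRX1b (rank 57). The site near LGI1, a secreted protein of neurons, was intergenic (chr10:93815544-93816674) with 9.94 (rank 100) and 9.54 (rank 68). The site in an intron of TSHZ3, a zinc finger factor (chr19:31339471-31340986), had 9.13 (rank 88) and 7.81 (rank 125). Of the other HEK293 lists without a partner the SOX9 site was in 0 of 4, the TSHZ3 site in 2 and the LGI1 site in 4, and all 3 sites were in each of the 5 lists with ALX4.

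PRRX1a-only sites were led by RPS6KA2, a ribosomal S6 kinase gene (intron, rank 147, fold 11.1), PCGF5, a Polycomb group gene (rank 170, fold 10.3), and a site nearest to HNRNPA1L3 (rank 251, fold 10.1). The best with the composite motif lay 2012 bp inside TCF4, the E protein that pairs with TWIST1 (intron, chr18:55300220-55300847, rank 724, fold 8.03). Sites nearest to SPRY1, an inhibitor of receptor tyrosine kinase signalling (rank 1570, fold 6.76), and PTGER2, a prostaglandin receptor (rank 2204, fold 6.33), came next. PRRX1b-only sites were led by introns of CSTPP1 (rank 73, fold 15.4) and IGF1R, a growth factor receptor (rank 105, fold 11.1), and by SDC1, a cell-surface proteoglycan (rank 133, fold 12.5). Those with the composite motif were in DOK6, a receptor adaptor (intron, rank 141, fold 13.3), near SDK1, an adhesion molecule (rank 200, fold 10.4), and near KBTBD2, a ubiquitin ligase adaptor (rank 289, fold 10.7). The 3 composite sites named for PRRX1b only thus ranked higher than the 3 named for PRRX1a only, and each of the 6 was also in at least 4 of the 5 lists with ALX4.

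Across sites, the composite motif was least frequent where TWIST1 alone had a peak and neither isoform did. It was found at 166 sites (0.510%, against 0.0446% of windows placed 1000 bp to either side). The share was 1.096% in sites of all 3 lists, 0.861% (0.579 to 1.28) in sites of both isoforms and not of TWIST1 alone, 0.704% (0.553 to 0.897) in PRRX1b-only sites, 0.407% (0.267 to 0.622) in PRRX1a-only sites and 0.114% (0.0622 to 0.211) in sites of TWIST1 alone only. Sites that TWIST1 alone shared with PRRX1a had 0.217% and those it shared with PRRX1b 0.474%. Of the 166 sites 110 (66.3%) were in an isoform list and not in that of TWIST1 alone, a class that made up 52.8% of all sites, and 10 (6.02%) were in TWIST1 alone only, which made up 26.9%. The interval of TWIST1 alone only did not reach those of the 3 classes found with an isoform and not alone.

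By list, the composite share was 0.305% for TWIST1 alone, 0.684% for PRRX1a and 0.762% for PRRX1b. PRRX1a exceeded TWIST1 alone by 0.378 percentage points (Newcombe interval 0.213 to 0.557) and PRRX1b by 0.457 (0.301 to 0.617). PRRX1b minus PRRX1a was 0.0787 (-0.122 to 0.271), an interval that includes 0. The 3 V5 replicates without a partner had 0.173 ± 0.0197% (SD, n = 3), a spread smaller than either excess. Lists without a partner differed more between experiments, from 0.141% in the pCAG list to the 0.305% of TWIST1 alone. With TAATTA alone as the homeodomain site the excess was 0.117 for PRRX1a and 0.196 for PRRX1b, and among the 2000 strongest peaks 1.1 and 1.15. The lists with ALX4 (1.44%), PHOX2A (1.78%) and MSX1 (2.84%) made with the same antibody and plasmid backbone lay above both isoform lists. Among the 2000 strongest peaks they had 3.70%, 3.75% and 3.35%, against 2.00% for PRRX1a and 2.05% for PRRX1b. The pCAG list with ALX4 lay below both isoform lists over all peaks (0.589%) and above them among the 2000 strongest (2.30%).

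The gap of 4 bp was the most frequent in all 3 lists. With gaps from 0 to 20 bp counted, 84 PRRX1a peaks (16.8 times the flanking windows), 132 PRRX1b peaks (13.2 times) and 47 peaks of TWIST1 alone (10.4 times) had the gap of 4 bp. At a gap of 2 bp there were 21 PRRX1a peaks (0.171%, 0.112 to 0.261, 4.20 times) and 24 PRRX1b peaks (0.139%, 0.0932 to 0.206, 4.80 times), against 6 of TWIST1 alone (0.0390%, 0.0179 to 0.0850, 1.00 times). The intervals of both isoforms lay above that of TWIST1 alone there, on far fewer peaks than at 4 bp. At a gap of 0 bp there were 28 PRRX1b peaks (0.162%, 0.112 to 0.234, 2.24 times), 10 PRRX1a peaks (0.0814%, 0.0442 to 0.150, 1.11 times) and 7 of TWIST1 alone (0.0455%, 0.0220 to 0.0938, 1.17 times), so only the interval of PRRX1b lay above that of TWIST1 alone. The list with ALX4 had 180 peaks with the gap of 4 bp (60 times). It had 23 with that of 2 bp (0.184%, 3.29 times) and 27 with that of 0 bp (0.216%, 3.38 times). None of these gaps was thus particular to the isoform lists. At a gap of 14 bp there were 15 PRRX1a peaks, 14 PRRX1b peaks and 12 of TWIST1 alone, and the ratios to the flanks were 6.00, 1.65 and 3.43.

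**Figure D4:**
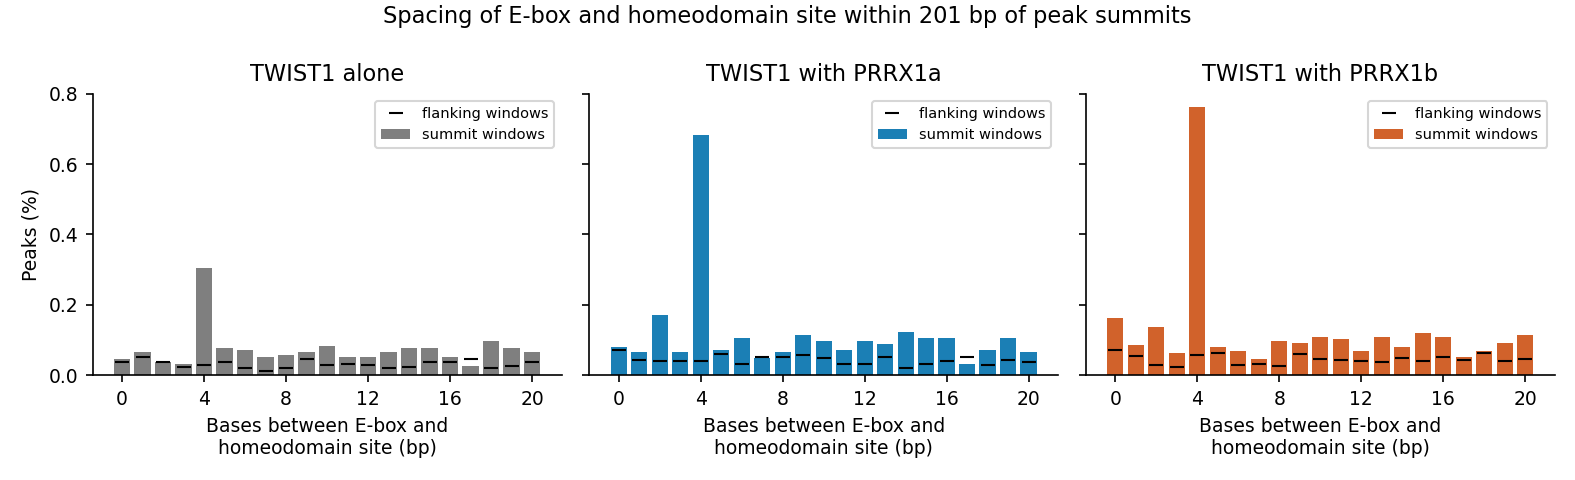
Percent of peaks with an E-box and a homeodomain site separated by 0 to 20 bp, for TWIST1 alone, with PRRX1a and with PRRX1b. Bars are windows of 100 bp to either side of the summit and dashes are flanking windows. The gap of 4 bp is the tallest bar in every panel, at 0.305%, 0.684% and 0.762%.

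The letters of the composite differed little between the isoforms in the homeodomain part. Read from the E-box, CAATTA made up 42 of 84 instances with PRRX1a, 68 of 132 with PRRX1b and 23 of 47 with TWIST1 alone, while it made up 7 of the 29 instances in flanking windows. TAATTA made up 28, 53 and 17, and TAATTG 14, 11 and 7. In the E-box part, CAGCTG stood at 2 of 21 PRRX1a-only sites and at 32 of 65 PRRX1b-only sites. That contrast was picked out after the values were seen and was not tested. In sites of both isoforms the motif lay a median of 29.5 bp from the summit, against 65.5 bp in PRRX1a-only and 46.5 bp in PRRX1b-only sites. Over all 166 sites it was 40.5 bp, and in flanking windows the motif lay 44.5 bp from the window centre. In the single-isoform classes the motif was thus no nearer to the summit than in flanking windows.

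Single motifs changed as well. An E-box of these forms was in 60.3% of sites of all 3 lists, 50.7% of TWIST1 alone only, 44.1% of both isoforms, 39.3% of PRRX1b only and 35.03% of PRRX1a only, against 23.1% of flanking windows over all sites. The homeodomain site was in 19.0% of sites of both isoforms (flanks 15.4%), 16.9% of PRRX1b only (16.7%), 16.2% of PRRX1a only (15.6%) and 6.63% of TWIST1 alone only (12.1%). Sites of a single isoform thus held the homeodomain site about as often as their own flanks. Base composition moved with it: the median AT content at the summit was 52.7% in sites of both isoforms and in PRRX1a-only sites, 53.7% in PRRX1b-only sites and 45.3% in sites of TWIST1 alone only, and its part in the motif shares was not tested. Neither motif was found in 54.3% of PRRX1a-only and 50.6% of PRRX1b-only sites.

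The double E-box went the other way. It was found at 213 sites, of which 144 (67.6%) were in TWIST1 alone only and 4 were in both isoforms and not in TWIST1 alone. By list the share was 1.29% for TWIST1 alone, 0.277% for PRRX1a and 0.237% for PRRX1b, and in the 500 strongest peaks 9.40%, 0.6% and 0.8%. The V5 replicates without a partner had 1.03 ± 0.145% (SD, n = 3). Both isoform lists lay far below that range, while the lists with PHOX2A (1.64%) and MSX1 (1.28%) did not. Low as well were the 5 lists with ALX4, at 0.251% to 0.528%, so the low share was not particular to PRRX1. Among the 2000 strongest peaks of TWIST1 alone, the 961 that PRRX1a lacked held 72 double E-boxes and 3 composite motifs, and the 759 that PRRX1b lacked held 62 and 0. All 2000 held 99 and 18.

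Other short words were counted in the same way. Within 50 bp of the summit, CAGCTG was, among words in at least 2% of sites, the 6-base word with the highest ratio to the flanks in sites of both isoforms (13.8% of sites, 3.8 times), PRRX1b only (9.44%, 2.58 times) and PRRX1a only (8.79%, 2.24 times). It did not mark the isoform classes, since in sites of all 3 lists it was at 17.9% (3.86 times), and within 100 bp of the summit it was in 23.7% of sites of TWIST1 alone only against 16.9% of PRRX1b-only and 15.4% of PRRX1a-only sites. GAGTCA or its complement TGACTC, part of the site of AP-1 factors, was in 10.3% of sites of both isoforms (2.62 times). In sites of TWIST1 alone only the leading words were CGCGCA (4.57%, 3.48 times) and the E-box CACGTG (5.10%, 3.34 times). Position differed in parallel, since 37.6% of sites of TWIST1 alone only lay within 1 kb of a transcription start site, against 21.5% of both isoforms, 20.6% of PRRX1a only and 16.3% of PRRX1b only.

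The strongest peaks that an isoform lacked were examined next. Of the 2000 strongest PRRX1a peaks 396 (19.8%) had no PRRX1b peak of any strength. The composite motif was in 3 of them (0.758%, against 2.00% of all 2000). Of the 2000 strongest PRRX1b peaks 581 (29.1%) had no PRRX1a peak, and 13 held the motif (2.24%, against 2.05% of all 2000). The PRRX1a list was the shorter, and the part of its length in this was not tested. Peaks of hCNCC TWIST1 (below) overlapped 36.1% of the 396 PRRX1a peaks and 51.6% of the 581 PRRX1b peaks. Over all 2000 the shares were 54.95% and 61.0%.

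The sites were then set beside human cranial neural crest cells (hCNCC), derived from the H9 embryonic stem cell line, in which TWIST1 is made by the cells themselves. The reference set was 42318 TWIST1 peaks of unedited cells found in both replicates. It overlapped 50.1% of sites of all 3 lists, 35.3% of both isoforms and not TWIST1 alone, 19.3% of PRRX1b only, 16.3% of PRRX1a only and 20.1% of TWIST1 alone only, against 24.7% of all sites. These classes also differed in median site width (920, 685, 468, 467 and 490 bp in that order). Their median -log10 q was 10.9, 6.24, 3.26, 2.84 and 3.73. The part of width and strength in the overlap was not tested. In the 500 strongest peaks the share in the reference set was 67.6% for TWIST1 alone, 73.8% for PRRX1a and 77.2% for PRRX1b. Over whole lists the difference from TWIST1 alone was 1.46 percentage points for PRRX1a (0.384 to 2.54) and 0.0645 for PRRX1b (-0.916 to 1.04), while the V5 replicates without a partner had an SD of 4.20 points. The whole-list differences were thus smaller than the spread between those replicates, whose lists also differed in length (30471, 22465 and 56014 peaks). Among peaks with -log10 q of at least 5 the differences were 8.70 points for PRRX1a and 6.44 for PRRX1b. Among the 2000 strongest peaks of each list they were 2.1 points for PRRX1a (-0.989 to 5.18, an interval that includes 0) and 8.15 for PRRX1b (5.08 to 11.2). The 2000 strongest peaks of the V5 replicates had shares of 44.25% to 51.8%, with an SD of 4.10 points, a spread that the intervals do not cover.

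Most composite sites were also TWIST1 peaks in hCNCC. Of the 166 sites 133 (80.1%, 73.4 to 85.5) were in the reference set, including 32 of 32 in all 3 lists, 21 of 24 in both isoforms, 49 of 65 in PRRX1b only and 14 of 21 in PRRX1a only. All 9 composite sites named above were in it and in an hCNCC ATAC-seq peak, that is, open chromatin. In any of the 5 lists of TWIST1 with ALX4 were 157 of the 166.

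Sites of both isoforms were rarely theirs alone among HEK293 lists. Of the 2789 sites 97.0% were in at least 1 of the 5 ALX4 lists and 77.7% in at least 1 of the 4 other lists without a partner, against 80.0% and 73.0% of all sites. In an ALX4 list and in none of those 4 other lists were 20.6% of these sites, 24.8% of PRRX1a-only and 29.3% of PRRX1b-only sites, against 15.5% of all sites. In none of the 11 other HEK293 TWIST1 lists were 1.65% of sites of both isoforms, 21.8% of PRRX1a-only and 19.1% of PRRX1b-only sites, against 11.5% of all sites. Left after removing every site of a list without a partner were 622 sites of both isoforms, a class formed after the values were seen. Of these, 12 held the composite motif (1.93%, 1.11 to 3.34), 41.5% were in the hCNCC reference set and 9.49% lay within 1 kb of a start site. The other 2167 gave 0.554%, 33.5% and 24.9%.

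By nearest start site, sites of both isoforms fell near regulators of face mesenchyme somewhat more often than sites as a whole. Of the 46 genes of that list, 19 had such a site, with 43 sites in all (1.54%, 1.15 to 2.07, against 1.01% of all sites). MSX2, a homeodomain factor of skull and face, had 8 of its 30 sites in this class, and NR2F1, a nuclear receptor of neural crest, and SOX9 had 6 each of 23 and 33. The 33 genes of mesenchymal transition and matrix had 18 sites (0.645%, 0.409 to 1.02, against 0.353%), among them 4 at ZEB2, a transition factor, and 2 at VIM, the intermediate filament gene. The 13 bHLH partners and inhibitors had 8 (0.287% against 0.304%), with 3 at TCF4. The intervals of the face and matrix lists lay above the value of all sites, and that of the bHLH list held it. Sites of all 3 lists had 1.302% near genes of the face list and 0.514% near those of the matrix list. Both values lay inside the intervals of sites of both isoforms, so these classes were not set apart. Several sites shared a nearest gene, while the intervals treat sites as independent. A nearest gene is not shown to be a target.

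The transfected genes themselves were checked by peaks over their exons. A peak covered the TWIST1 exon, whose coding sequence the plasmid also carries, with TWIST1 alone (chr7:19116711-19117153, fold 4.69, rank 3) and with PRRX1a (chr7:19116732-19117108, fold 3.24, rank 3). The PRRX1b list had none there. No peak covered an exon of PRRX1 in the 3 lists, so they held no readout of the PRRX1 plasmids. About 1.3 kb from the PRRX1 start site a peak was present in all 3 lists, with fold 5.31, 7.17 and 6.42 for TWIST1 alone, PRRX1a and PRRX1b.

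PRRX1 in hCNCC gave almost no peaks to set beside these sites. The PRRX1FV line carries a tag on PRRX1 with the V5 epitope, and its V5 lists held 2 peaks in replicate 1 and 1 in replicate 2. Both peaks of replicate 1 (chr5:168654240-168654561, fold 6.79, and chr7:18846781-18847045, fold 5.80) overlapped sites of both isoforms and not of TWIST1 alone, a class of 8.57% of all sites. Their -log10 q was 9.45 and 3.06. The peak of replicate 2 overlapped no site of the 3 lists. These peaks are too few to relate PRRX1 to any class.

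As a readout independent of the HEK293 lists, H3K27ac, a histone mark of active regulatory DNA, was compared at the sites in hCNCC before and after treatment to degrade TWIST1 or PRRX1. TWIST1FV and PRRX1FV cells received 500 nM dTAGV-1, which is meant to remove the tagged factor. How far the factor was removed was not measured here. Reads were counted over 213151 ATAC-seq peaks with 2 replicates per time, from the same clone in TWIST1FV and from different clones in PRRX1FV. Library totals ran from 6222449 to 8817125. At 3 h in TWIST1FV, edgeR's quasi-likelihood test at an FDR of 0.05 called 6520 of 123361 tested ATAC-seq peaks (5.29%), 5279 lower (4.28%) and 1241 higher (1.01%). Where a peak overlapped a site of both isoforms and not of TWIST1 alone, 170 of 1748 were lower (9.73%) and 8 higher (0.458%). Sites of all 3 lists gave 7.87% lower, PRRX1b only 7.23%, PRRX1a only 4.17% and TWIST1 alone only 2.02%. Sites that TWIST1 alone shared with PRRX1a gave 1.72% and those it shared with PRRX1b 2.98%.

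Among the classes, loss of the mark was thus most frequent at sites of both isoforms, with PRRX1a-only sites at the level of all tested peaks and sites of TWIST1 alone, by itself or with a single isoform, below it. The median log2 fold change was -0.12 in sites of both isoforms, 0.07 in PRRX1a only, -0.06 in PRRX1b only and 0.15 in TWIST1 alone only, beside 0.02 over all tested peaks. Without replicate 1 at 0 h the calls at sites of both isoforms went from 178 to 96 and those over all peaks from 6520 to 3261, and 4.79% of the former were lower against 1.65% of all. Within 1 kb of a start site lay 21.5% of sites of both isoforms, 20.6% of PRRX1a only, 16.3% of PRRX1b only, 31.1% of all 3 lists and 37.6% of TWIST1 alone only. The hCNCC reference set overlapped 35.3%, 16.3%, 19.3%, 50.1% and 20.1% of sites in that order. The part of either in the loss was not tested, and neither was the difference between classes.

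**Figure D5:**
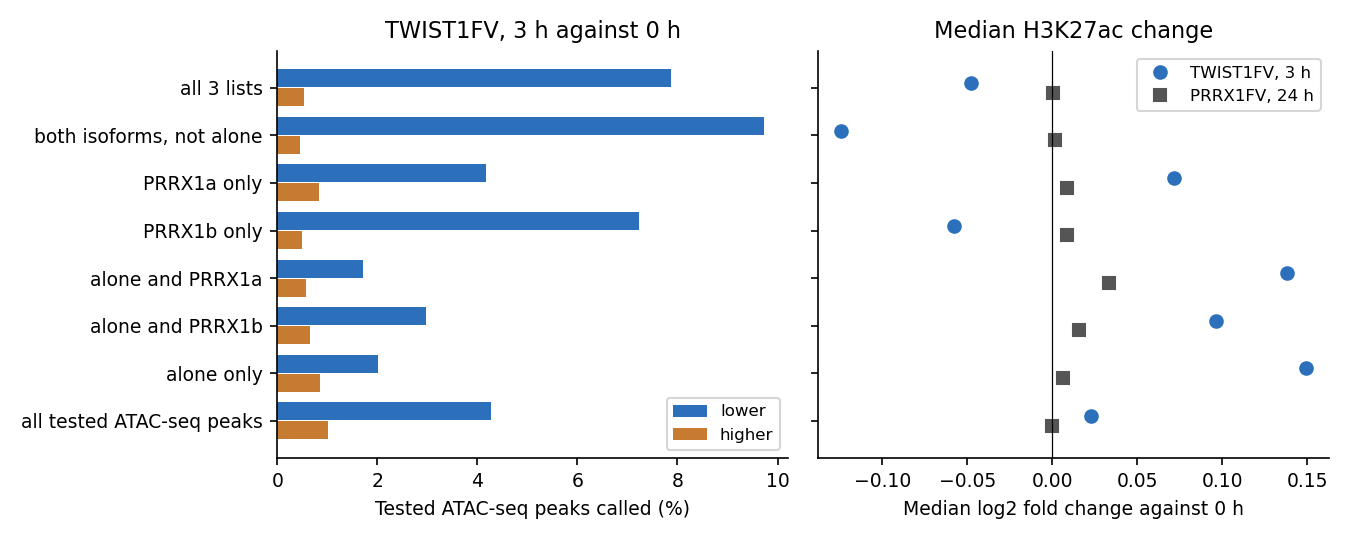
H3K27ac at hCNCC ATAC-seq peaks by the class of the overlapping site. Left, percent of tested peaks called lower or higher at 3 h in TWIST1FV; right, median log2 fold change at 3 h in TWIST1FV and at 24 h in PRRX1FV. Sites of both isoforms have the highest share lower (9.73%) and the lowest median (-0.12), and the medians of PRRX1FV lie near 0.

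Of the named sites, FOXP4 had an H3K27ac level of 64.0 and 55.8 CPM at 0 h and 20.97 and 20.6 CPM at 3 h in TWIST1FV, a log2 fold change of -1.53 (SE 0.205, edgeR adjusted p = 0.000281). TSHZ3 went from 22.97 and 23.9 CPM to 7.33 and 9.45 CPM (-1.48, SE 0.282, edgeR adjusted p = 0.00443). KBTBD2 went from 3.52 and 4.25 CPM to 1.17 and 0.834 CPM (-1.94, SE 0.511, edgeR adjusted p = 0.034). At these 3 sites the replicates of both times did not overlap. The SOX9 site was at 40.4 and 31.1 CPM before and 38.3 and 22.8 CPM after (-0.23, edgeR adjusted p = 0.716), and the TCF4 site at 99.1 and 75.8 CPM before and 91.0 and 73.4 CPM after (-0.09, edgeR adjusted p = 0.852). CSTPP1 narrowly missed the threshold (-0.92, edgeR adjusted p = 0.0506).

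After 24 h of dTAGV-1 in PRRX1FV the sites did not pass the test. In PRRX1FV edgeR called 1 of 120925 tested peaks (0.000827%), and 0 of 1737 at sites of both isoforms and not TWIST1 alone. At an unadjusted p under 0.05 were 80 of the 1737 and 5117 of all tested peaks, and DESeq2 also called 0 at these sites. Of the named sites, FOXP4 was at 24.4 and 22.7 CPM at 0 h and 22.1 and 26.99 CPM at 24 h, and TSHZ3 at 12.3 and 14.7 CPM and then 14.1 and 15.1 CPM, and at both sites the ranges of the times overlapped. At SDC1 they did not (16.9 and 16.2 CPM, then 22.1 and 25.6 CPM, edgeR adjusted p = 1), nor at SUB1, ZNF608, LGI1, RPS6KA2, DOK6 and CREB3L2, which moved in both directions and also had an edgeR adjusted p of 1. In simulated PRRX1FV counts over 20000 peaks the test recovered 70% of log2 changes of 2 and 16% of log2 changes of 1. The spread between replicates in that simulation was set in advance and not estimated from PRRX1FV. At that assumed spread most changes of 1 would be missed, and recovery in the real counts may differ.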

How the data were processed

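Coordinates are in hg38, per the labels. The submitters' processing notes name Bowtie2 2.4.1, SAMtools 1.10, MACS2 2.2.7.1 and deepTools 3.5.0. What each tool did, the control used for calling peaks and its threshold are not stated in the sources available here. Each deposited peak list belongs to 1 library and holds, by the standard column order, a fold enrichment (a ratio to background), the -log10 of a p-value, the -log10 of a q-value and a score per peak, all the authors' values, used only to describe and rank peaks within a list. The deposited H3K27ac tables hold raw read counts, not normalised by the authors. Mouse O9-1 chromatin was added to the TWIST1FV libraries but not to those of PRRX1FV, per the labels, and its reads were not used here, so a uniform change across peaks would go unseen. No column of the tables was left without a sample (0 unmapped).

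Peaks were ranked by -log10 p, and where an interval had several summits the strongest was kept. Peaks of the 3 lists that overlapped by at least 1 bp were joined into sites. Motifs were searched on both strands within 100 bp of the summit and in windows of the same length centred 1000 bp to either side. Start sites and features came from GENCODE 44. Shares have Wilson 95% intervals and differences Newcombe intervals. Counts were tested with edgeR 4.0.16 (R 4.3.3, TMM, filterByExpr, all 6 libraries of a line, no block, Benjamini-Hochberg FDR 0.05), with DESeq2 1.42.0 as an alternative. The test was checked on simulated counts. Nothing in the labels says that replicates came from separate cultures, so p-values measure the spread between these samples. In PRRX1FV the replicate number marks the clone, which pairs its libraries; same-numbered libraries correlated at 0.0182 to 0.0208 in their deviations from the means, and a block for the number left the counts of calls as they were. In TWIST1FV both numbers are the same clone. Alternatives covered the overlap rule, the q threshold, the strongest 2000 peaks, the motif window and letters, the filter, a replicate block and leaving out each library.

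The members, gene lists and comparisons were chosen with earlier results of these data known. Sites were named by rule: in each of 5 classes the 3 sites with the best worst rank, and in the 3 isoform classes also the 3 best with the composite motif, none on chromosome 8. Peaks over exons of TWIST1 or PRRX1 were also named.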

Additional observations from a re-analysis of the deposited data

How the results depend on the processing

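Of 79 recomputed values 40 stayed within 1.5 times of the count or within the interval of the share or difference reported, 39 moved and 0 reversed. With -log10 q of at least 5 in every list, sites of both isoforms and not of TWIST1 alone numbered 1170, PRRX1a-only sites 1684, PRRX1b-only sites 3496 and sites of all 3 lists 1082, and with the 2000 strongest peaks of each list 514, 945, 896 and 383. These fewer sites follow from fewer peaks. Summits within 100 bp left 1550 sites in all 3 lists. Absence from the 4 other lists without a partner, added after seeing the data, left 622 sites of both isoforms. The share of PRRX1a peaks overlapped by PRRX1b was 37.2% at a reciprocal overlap of 50%, 29.7% with summits within 100 bp, 51.0% at -log10 q of at least 5 and 44.9% for the strongest 2000, and that of PRRX1b by PRRX1a was 26.4%, 21.04% and, for the strongest 2000, 44.95%. The composite excess over TWIST1 alone, in percentage points, was 0.760 (PRRX1a) and 0.790 (PRRX1b) at -log10 q of at least 5, 1.1 and 1.15 for the strongest 2000, and 0.117 and 0.196 with TAATTA alone as the homeodomain site, and for PRRX1b 0.248 within 50 bp of the summit. The excess in the hCNCC reference set was 8.70 (PRRX1a) and 6.44 (PRRX1b) points at -log10 q of at least 5, 2.1 (PRRX1a, -0.989 to 5.18) and 8.15 (PRRX1b) among the strongest 2000, and 0.168 for PRRX1a at a reciprocal overlap of 50%. The difference between the isoforms in composite share went from 0.0787 to -0.0108 within 50 bp of the summit, inside its interval. The cause of these moves was not tested.

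With the replicate number as a block, calls in TWIST1FV at 3 h went to 12914, and to 313 at sites of both isoforms. Same-numbered TWIST1FV libraries correlated at 0.0766 to 0.14 in their deviations from the means, and nothing but the number links them. In PRRX1FV the block gave 1 call and 0 at sites of both isoforms, as without it. Leaving out each library in turn gave 3261 to 8476 calls in TWIST1FV at 3 h, 96 to 206 at sites of both isoforms, and 0 to 4 calls in PRRX1FV at 24 h, where no filter on low counts gave 0. The lone library of a time was then assumed to vary like the others. The lists are 1 library each, so their depth and repeatability limit every comparison between them.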
